A study of Mus musculus with 6 samples.

Results

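Cholesterol synthesis and its sterol feedback were read from RNA sequencing of mouse kidney through 29 genes with textbook roles. The list was drawn up with earlier results of these data known. It holds 19 enzymes of the pathway, 5 genes of the SREBP control system, 3 genes of sterol transport, storage and efflux, and 2 oxysterol receptors. These are 29 of 51804 gene symbols in the deposited table, and all 29 had enough counts to be among the 15017 genes tested. The 6 libraries fall into 2 groups of 3. The group labelled cko has the genotype Ccnb1f/f;Cdh16-Cre and the group labelled control has Ccnb1f/f, so both carry floxed alleles of Ccnb1, the gene of the mitotic cyclin B1. The promoter of Cdh16, the kidney-specific cadherin, drives Cre recombinase in tubular epithelium, while vessels, stroma and immune cells of the organ are not cells in which that promoter is known to act. The sources used here give no age, strain, sex or treatment. Nothing in the labels states that replicates are separate mice, so a p-value measures only the spread between these libraries. In bulk tissue, fewer cells of a type and less RNA per cell cannot be told apart.

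Mammalian cells build cholesterol from acetyl-CoA through mevalonate, farnesyl diphosphate, squalene and lanosterol. When the membrane of the endoplasmic reticulum holds little sterol, the escort protein SCAP carries the SREBP transcription factors to the Golgi, where they are cleaved, and the released fragments switch on nearly every enzyme gene of the route. When sterol is plentiful, the INSIG proteins hold SCAP back, and oxysterols bind the nuclear receptors LXR, which raise efflux genes such as Abca1 as well as Srebf1. The enzyme genes therefore share a regulator and are known to respond to sterol as a group.

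Of the 29 genes, 0 passed the threshold between the groups (edgeR's quasi-likelihood test, Benjamini-Hochberg adjusted p under 0.05), against 0.0133% of all genes tested. DESeq2 and limma also called 0 of the 29. At an unadjusted p under 0.05 edgeR gave 3 of 29, namely Cyp51, Lss and Soat1, against 3.23% of all genes. The median log2 fold change, cko over control, was -0.07 over the 29 and -0.0051 over all genes tested, with 11 of the 29 above 0 and 18 below (51.0% of all genes lay below). The 95% interval excluded a 2-fold change in either direction for 25 of the 29 genes. Cyp51, the demethylase of lanosterol, lay on the higher side (1.35% of all genes did so at that p), and Lss, the lanosterol synthase, and Soat1, which esterifies cholesterol, on the lower side (1.88%).

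Depth was 16061435 to 21261226 estimated counts per library. Ccnb1 had 18, 15 and 11 counts in the libraries labelled cko and 11, 17 and 7 in controls (log2 fold change 0.34, SE 0.46, edgeR adjusted p = 0.999), so its level gave no check of the labels. Of all genes, 2 passed the threshold: Mcm6, a subunit of the replication helicase, was higher in cko (17.2, 32.6 and 25.4 against 1.88, 3.39 and 2.33 counts per 1e6 library counts, CPM), and Kap, an abundant kidney androgen-regulated protein, had 0 counts in every cko library and 8717 to 16590 CPM in controls. On chromosome 1, 7.8% of 897 genes had an unadjusted p under 0.05 by edgeR, against 2.94% of 14120 genes elsewhere; Insig2, Soat1, Hsd17b7 and Lbr lie there. Control 3 stood apart in immediate early and heat shock genes, whose 9 members summed to 3384 CPM there and to 259 to 642 CPM in the other libraries.

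The regulatory sequence in front of these genes was read from RefSeq promoter windows on GRCm38.p6, each from 250 bases before to 50 bases after an annotated start. Of the 29 genes, 25 matched, with 34 windows, because some have several starts; Fdft1, Fdps, Sqle and Stard4 did not match. Both strands were searched for the core of the sterol response element bound by SREBPs (TCACNCCAC), for the NF-Y box (CCAAT) and for the GC box (GGGCGG), whose matches may share end letters. The last 2 are short and common: CCAAT stood in 37.4% of all 32851 windows and in 61.8% of the 34, and GGGCGG in 35.7% and 76.5%. The strict sterol element was in 1.24% of all windows and in 1 of the 34, that of Hmgcs1, where it starts 137 bases before the RefSeq start. The deposited table places the start of Hmgcs1 further downstream, at base 119690462. A direct repeat of AGGTCA spaced by 4 bases, the element of LXR, with up to 1 mismatch in each repeat, was in 1.75% of all windows and in 0 of the 34. A match is a description of letters, and a missing match says only that those letters are not in that window.

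The 6 stretches below are those of the genes on which the values turn: the most abundant enzyme, the 3 genes with the smallest p, and Srebf1. For Srebf1, whose transcripts are read apart further on, an upstream and a downstream start are printed. It has a further window that is not printed. Each is printed 5′ to 3′ on the gene's strand, up to the RefSeq start or to the edge of the nearest annotated exon before it, in lower case with motif matches in capitals (CCAAT or ATTGG on the opposite strand, GGGCGG or CCGCCC on the opposite strand, and the sterol element).
Hmgcs1: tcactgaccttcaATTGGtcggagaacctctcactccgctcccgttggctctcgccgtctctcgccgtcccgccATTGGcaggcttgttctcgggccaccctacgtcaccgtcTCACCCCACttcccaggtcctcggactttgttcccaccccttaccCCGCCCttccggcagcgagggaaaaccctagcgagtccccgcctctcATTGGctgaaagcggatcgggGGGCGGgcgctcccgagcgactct
Cyp51: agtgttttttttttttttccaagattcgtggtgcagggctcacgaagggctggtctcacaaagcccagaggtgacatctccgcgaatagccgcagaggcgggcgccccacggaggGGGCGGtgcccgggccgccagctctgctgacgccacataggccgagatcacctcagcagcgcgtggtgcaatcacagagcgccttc
Lss: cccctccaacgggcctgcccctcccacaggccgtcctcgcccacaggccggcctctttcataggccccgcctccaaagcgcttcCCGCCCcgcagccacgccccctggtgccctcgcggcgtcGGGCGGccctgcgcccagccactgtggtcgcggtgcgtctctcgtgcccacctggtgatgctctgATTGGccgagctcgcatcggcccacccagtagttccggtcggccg
Soat1: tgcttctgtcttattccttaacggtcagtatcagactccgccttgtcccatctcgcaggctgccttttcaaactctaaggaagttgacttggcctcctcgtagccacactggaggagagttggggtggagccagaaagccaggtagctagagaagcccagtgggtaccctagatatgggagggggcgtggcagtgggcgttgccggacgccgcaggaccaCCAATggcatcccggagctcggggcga
Srebf1 upstream start: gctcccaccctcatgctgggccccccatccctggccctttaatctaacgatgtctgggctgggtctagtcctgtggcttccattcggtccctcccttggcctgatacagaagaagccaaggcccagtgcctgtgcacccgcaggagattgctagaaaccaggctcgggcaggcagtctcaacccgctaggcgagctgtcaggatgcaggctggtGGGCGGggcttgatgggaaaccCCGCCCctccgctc
Srebf1 downstream start: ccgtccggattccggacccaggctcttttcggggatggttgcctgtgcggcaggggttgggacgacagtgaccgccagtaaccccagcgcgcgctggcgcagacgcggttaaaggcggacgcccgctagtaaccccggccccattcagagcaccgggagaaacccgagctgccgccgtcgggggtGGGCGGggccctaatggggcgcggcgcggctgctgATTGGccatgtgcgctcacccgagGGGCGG
Hmgcs1 (chr13:119690101-119690350, plus strand) held 3 NF-Y boxes, 2 GC boxes and the sterol element within 250 bases. Cyp51 (chr5:4104747-4104947, minus strand) showed 1 GC box in its printed stretch, Lss (chr10:76531355-76531587, plus strand) 1 NF-Y box and 2 GC boxes, and Soat1 (chr1:156474332-156474578, minus strand) 1 NF-Y box. Outside the printed stretches, the searched windows also held an NF-Y box for Cyp51 and a GC box for Soat1. In the printed stretches, the upstream start of Srebf1 (chr11:60220628-60220877, minus strand) had 2 GC boxes and no NF-Y box, and the downstream start (chr11:60210472-60210721, minus strand) had 2 GC boxes and 1 NF-Y box.

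Levels of different genes were compared per length, as FPKM (fragments scaled by transcript length and library total) summed over a gene's transcripts. The pathway was uneven. Hmgcs1, the cytosolic HMG-CoA synthase that feeds the mevalonate route, was the most abundant of the 29 with a median of 226 FPKM over the 6 libraries (range 200 to 295). Cyp51 followed with 126 FPKM (103 to 138), and then Nr1h2, which encodes the widely expressed LXR beta, with 54.5 FPKM (51.8 to 60.3). These 3 ranges did not overlap, and that of Nr1h2 also lay above that of Ebp, the sterol isomerase, at 43.7 FPKM (38.9 to 50.1). From Ebp down to Lss, the lanosterol synthase, at 6.05 FPKM (5.29 to 7.97), every neighbouring pair in the order had overlapping ranges. Abca1, the pump that exports cholesterol to apolipoprotein A-I, was last with 3.24 FPKM (1.46 to 3.97), below the range of Lss. In all, 24 of 28 neighbouring pairs overlapped.

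**Figure D1:**
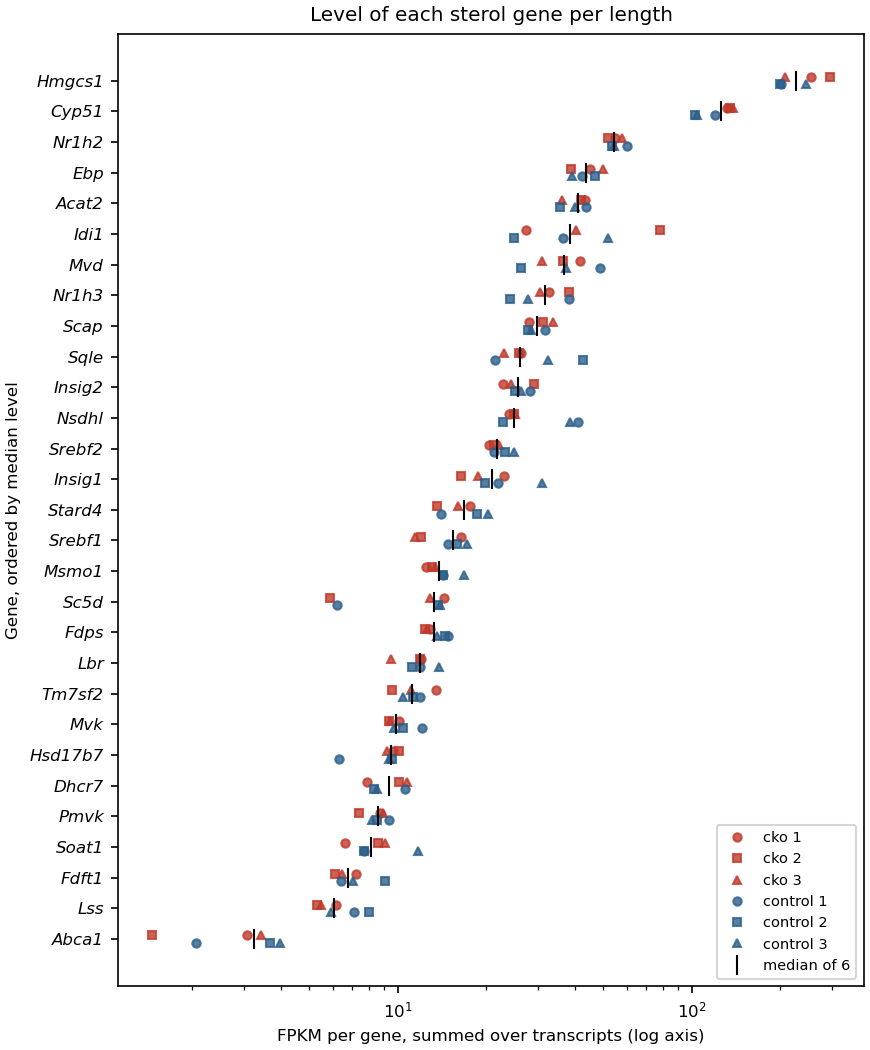
FPKM per gene on a log axis for the 29 genes, ordered by the median of the 6 libraries (vertical tick), with red points for cko and blue for control libraries. Hmgcs1 and Cyp51 stand clear at the top, Abca1 at the bottom, and most neighbours between them overlap.

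The enzymes that follow each other in the route were therefore not at one level. Cyp51 acts on the product of Lss, and its FPKM was 21.3, 25.5 and 25.2 times that of Lss in the cko libraries and 16.9, 12.9 and 17.6 times in controls. The summed FPKM of the 19 enzymes was 708, 777 and 661 in cko libraries and 666, 621 and 706 in controls, and these groups overlapped. Hmgcs1 and Cyp51 together made 54.5%, 55.3% and 52.3% of that sum in cko libraries and 48.3%, 48.8% and 49.5% in controls. The cko shares all lay above the control shares, while the other 17 enzymes summed to 322, 347 and 315 FPKM in cko libraries and to 345, 318 and 357 FPKM in controls, which overlap. The shares were looked at after the levels were known and carry no test.

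In the control system, Scap, the escort protein, had a median of 29.7 FPKM, Insig2 25.6, Srebf2 21.7, Insig1 20.9 and Srebf1 15.4. Srebf2 encodes the SREBP that chiefly drives cholesterol genes, and Srebf1 encodes the SREBP-1 proteins, of which the 1c form chiefly drives fatty acid genes. The FPKM of Srebf2 exceeded that of Srebf1 in all 6 libraries, by 1.25 to 1.93 times. Nr1h3, which encodes LXR alpha, had 31.6 FPKM, and Nr1h2 exceeded it in all 6 libraries by 1.35 to 2.24 times.

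Among the 7 genes of the mevalonate steps the median log2 fold change was -0.06, with 3 above 0 and 4 below, and 0 called. Hmgcs1 had 824, 966 and 656 CPM in cko libraries and 676, 609 and 817 CPM in controls. The groups overlapped, and its log2 fold change was 0.22 (SE 0.17, 95% interval -0.18 to 0.62, edgeR adjusted p = 0.9995). That value was 0.07 without cko 2, 0.13 without control 2, and at most 0.35 (without cko 3) when another library was left out. Acat2, the cytosolic thiolase that joins the first acetyl units, had 97.9, 95.6 and 79.8 CPM in cko libraries and 102, 75.5 and 92.9 CPM in controls, with a log2 fold change of 0.015 (SE 0.14).

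Idi1, the isomerase that makes dimethylallyl diphosphate, varied most of these 7 genes. Its values were 50.5, 118 and 74.1 CPM in cko libraries and 66.0, 37.5 and 81.7 CPM in controls, so the highest and the lowest library belonged to different groups but the rest were interleaved. Its log2 fold change of 0.39 (SE 0.35, 95% interval -0.41 to 1.20, edgeR adjusted p = 0.9995) moved with the libraries kept: it was 0.012 without cko 2, 0.13 without control 2, 0.64 without cko 1 and 0.65 without control 3. Fdps, the synthase of farnesyl diphosphate, was the steadiest: 15.9, 15.9 and 15.7 CPM in cko libraries against 18.7, 17.4 and 17.7 CPM in controls. All cko values lay below all control values by a small margin (log2 fold change -0.18, SE 0.115). The kinases Mvk and Pmvk and the decarboxylase Mvd had log2 fold changes of -0.14, -0.07 and -0.06, and their groups overlapped. Over the 6 libraries Mvk spanned 13.4 to 17.9 CPM, Pmvk 8.88 to 11.6 CPM and Mvd 43.4 to 89.1 CPM. In Mvd some reads were shared out between genes, so its counts are less certain.

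All 3 genes from squalene to lanosterol lay on the lower side, with a median of -0.30, and 0 were called. Lss, which closes oxidosqualene to lanosterol (ENSMUSG00000033105, chromosome 10, 76531588 to 76557138), had 25.6, 24.4 and 23.6 CPM in cko libraries and 32.6, 30.7 and 27.3 CPM in controls. The groups did not overlap in CPM, and its log2 fold change was -0.30 (SE 0.11, 95% interval -0.56 to -0.04, edgeR adjusted p = 0.9995). In FPKM they overlapped, at 6.17, 5.29 and 5.49 in cko libraries against 7.11, 7.97 and 5.92 in controls. Sqle, the squalene monooxygenase, had 72.5, 72.3 and 62.2 CPM in cko libraries and 61.4, 112 and 93.4 CPM in controls. Control 1 lay below all cko libraries and the other 2 controls above them, and the log2 fold change of -0.36 (SE 0.20, adjusted p = 0.9995 by edgeR) was -0.57 without control 1 and -0.17 without control 2. Fdft1, the squalene synthase, spanned 17.7 to 24.4 CPM, with a log2 fold change of -0.19 (SE 0.14) and some reads shared with other genes.

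The 9 genes from lanosterol to cholesterol were split, with 5 above 0, 4 below, a median of 0.0020 and 0 called. Cyp51 removes a methyl group from lanosterol and is the target of azole drugs in fungi. It is ENSMUSG00000001467, on chromosome 5 from 4081145 to 4104746 (GRCm38, as in the deposited table). The gene had 424, 446 and 436 CPM in cko libraries and 362, 316 and 325 CPM in controls, and every cko library lay above every control. The log2 fold change was 0.38 (SE 0.10, 95% interval 0.14 to 0.62), with an edgeR adjusted p of 0.9995 and a DESeq2 adjusted p of 0.576. It stayed between 0.34 and 0.44 when any single library was left out.

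Nsdhl, a dehydrogenase that acts in the removal of the remaining pair of methyl groups, is X-linked and had the largest change in size among the 29. Its cko libraries were nearly alike at 51.9, 54.6 and 53.0 CPM, while controls had 91.8, 46.5 and 86.1 CPM. Controls 1 and 3 lay above the cko libraries and control 2 below them. The log2 fold change was -0.49 (SE 0.23, 95% interval -1.02 to 0.04, edgeR adjusted p = 0.9995), and it was -0.74 without control 2 (edgeR adjusted p = 0.210) and -0.32 without control 1. The edgeR adjusted p without control 2 was the smallest of any of the 29 genes under any alternative.

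Msmo1, the methyl sterol oxidase that works with Nsdhl, had 24.2, 26.3 and 25.3 CPM in cko libraries and 28.98, 27.9 and 32.9 CPM in controls, without overlap (log2 fold change -0.245, SE 0.11). Hsd17b7, the reductase that completes the same demethylation, spanned 28.4 to 42.2 CPM over the 6 libraries and had a log2 fold change of 0.14 (SE 0.14), so the fold changes of these 3 enzymes did not share a sign. Ebp, the isomerase, had 70.6, 61.2 and 72.1 CPM in cko libraries and 61.7, 66.8 and 62.0 CPM in controls, overlapping, with a log2 fold change of 0.10 (SE 0.10).

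Sc5d, the sterol desaturase, was the noisiest of the 29. Its values were 35.9, 13.7 and 30.4 CPM in cko libraries and 12.1, 32.4 and 34.9 CPM in controls, with 1 low library in each group. The log2 fold change was 0.01 with a 95% interval of -0.997 to 1.02, about as wide as a 2-fold decrease to a 2-fold increase. Lbr and Tm7sf2, a pair of sterol reductases that act after Cyp51 (Lbr also anchors chromatin at the nuclear envelope), had log2 fold changes of -0.16 and 0.0020, and Dhcr7, the reductase that yields cholesterol, -0.065. Over the 6 libraries Lbr spanned 31.2 to 48.7 CPM, Tm7sf2 12.03 to 17.2 CPM and Dhcr7 17.5 to 23.0 CPM. The groups of all 3 overlapped, and reads of Lbr and Tm7sf2 were partly shared with other genes.

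**Figure D2:**
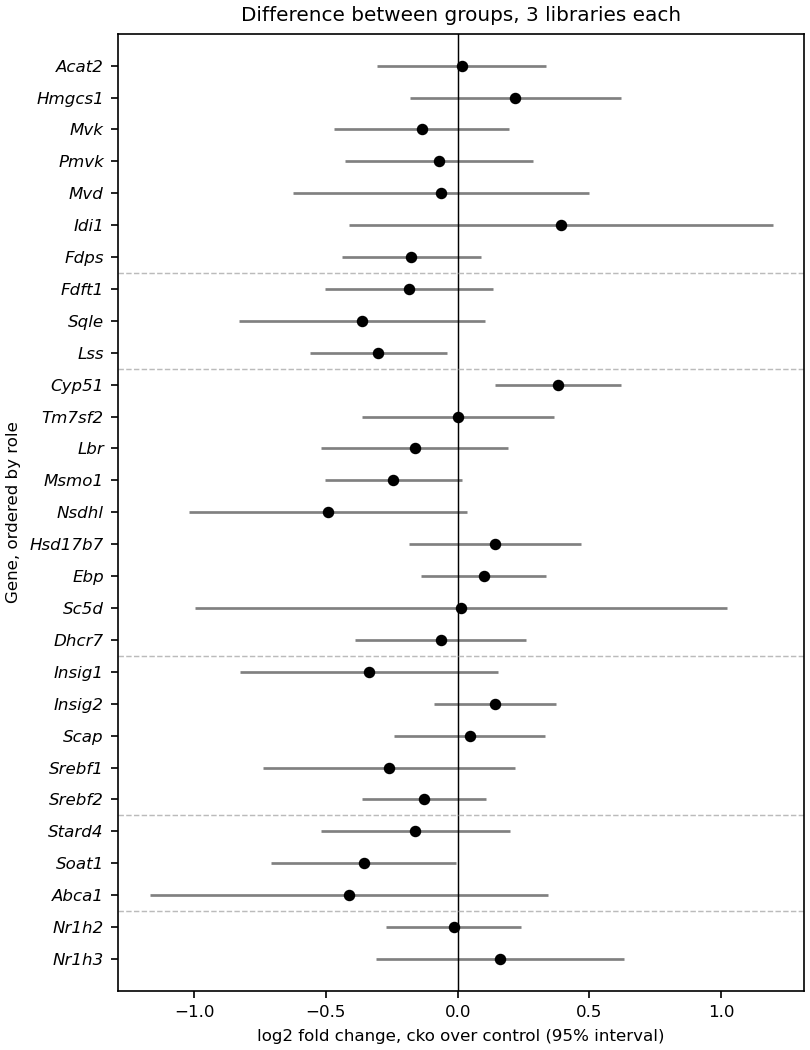
Log2 fold change, cko over control, of each of the 29 genes (points) with its 95% interval from edgeR (lines), in the order of the route; dashed lines part the roles. The intervals of Cyp51, Lss and Soat1 leave out 0, and those of Idi1, Nsdhl, Sc5d and Abca1 are the 4 that reach past a 2-fold change.

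Among the 5 genes of SREBP control 2 lay above 0 and 3 below (median log2 fold change -0.13) and 0 called. Srebf2, itself a target of its own product, had 102, 107 and 108 CPM in cko libraries and 110, 109 and 128 CPM in controls. These did not overlap but were close together (log2 fold change -0.13, SE 0.10). In FPKM the groups of Srebf2 overlapped, at 20.47, 21.24 and 22.15 against 21.29, 23.17 and 24.87. Insig1, the INSIG gene that SREBPs induce, had 61.6, 44.0 and 48.7 CPM in cko libraries and 60.1, 49.3 and 85.4 CPM in controls. Control 3 was the high library, and the log2 fold change of -0.34 (SE 0.21) was -0.09 without it. Srebf1 had 63.6, 37.8 and 40.3 CPM in cko libraries and 56.5, 48.8 and 64.5 CPM in controls. Its groups overlapped, with a log2 fold change of -0.26 (SE 0.21), which ranged from -0.535 without cko 1 to -0.13 without cko 2. Over the 6 libraries Insig2 spanned 48.5 to 60.0 CPM and Scap 109 to 138 CPM. Their groups overlapped, with log2 fold changes of 0.14 (SE 0.10) for Insig2 and 0.045 (SE 0.12) for Scap. In Scap, too, some reads were shared out between genes.

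The 3 genes of transport, storage and efflux lay on the lower side with a median of -0.36, and 0 were called. Soat1, which esterifies cholesterol for storage in lipid droplets (ENSMUSG00000026600, chromosome 1, 156424525 to 156474331), had 28.9, 32.6 and 37.1 CPM in cko libraries and 38.4, 37.6 and 50.5 CPM in controls. The groups did not overlap in CPM, and the log2 fold change was -0.36 (SE 0.15, 95% interval -0.71 to -0.0050, edgeR adjusted p = 0.9995). Without control 3, the library high in heat shock genes, it was -0.205, and the part of those genes in it was not tested. In FPKM the groups overlapped, at 6.62, 8.57 and 9.03 against 7.66, 7.66 and 11.7. Abca1 had 24.2, 15.2 and 34.1 CPM in cko libraries and 20.7, 35.4 and 42.1 CPM in controls, overlapping (log2 fold change -0.41, SE 0.33). That value was -0.17 without cko 2, -0.19 without control 3, -0.66 without control 1 and -0.73 without cko 3. Stard4, a cytosolic sterol carrier, spanned 70.3 to 105 CPM and had a log2 fold change of -0.16 (SE 0.16).

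The oxysterol receptors overlapped between groups. Nr1h2 had 98.3, 94.6 and 104 CPM in cko libraries and 112, 89.7 and 97.9 CPM in controls, with a log2 fold change of -0.015 (SE 0.11). Nr1h3 spanned 40.0 to 70.1 CPM and had a log2 fold change of 0.16 (SE 0.205).

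In all, 6 of the 29 genes (20.7%) had groups that did not overlap in CPM, against 8.16% of all genes tested. Cyp51 was higher (4.08% of all genes did not overlap in that direction), and Lss, Soat1, Fdps, Msmo1 and Srebf2 were lower (also 4.08%). Among the 19 enzymes alone the count was 4, or 21.1%. None of the 6 passed the edgeR threshold, and the genes are not independent of each other. In FPKM the groups of Lss, Soat1 and Srebf2 overlapped. Those of Srebf2 also overlapped in CPM scaled over transcripts, on the same counts. The genes were chosen with earlier results of these data known, so the share carries no test.

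Variation between libraries of one group was larger than the differences between groups for several genes. The within-group SD of log2 CPM was 0.80 for Sc5d, 0.60 for Idi1 and 0.56 for Abca1, against a median of 0.21 over all genes tested, and 12 of the 29 genes lay above that median. At the other end, Fdps had an SD of 0.04. From the lowest to the highest library, Idi1 spanned 3.16 times, Sc5d 2.98 times and Abca1 2.77 times, while Ebp spanned 1.18 times and Fdps 1.19 times. Of the 29 genes, 11 were highest in control 1 and 8 in control 3, and 10 were lowest in control 2 and 8 in cko 2. Control 2 and cko 2 held the opposite extremes of Idi1, and control 3 was lowest for 0 genes.

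The enzymes did not move as a block across libraries. Over the 171 pairs of the 19 enzymes, the median Pearson correlation of log2 CPM across the 6 libraries was 0.10 and the median Spearman correlation 0.09, with 94 pairs above 0 and a range of -0.91 to 0.96. These correlations rest on 6 libraries that share depth and tissue makeup, and are given as a description.

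**Figure D3:**
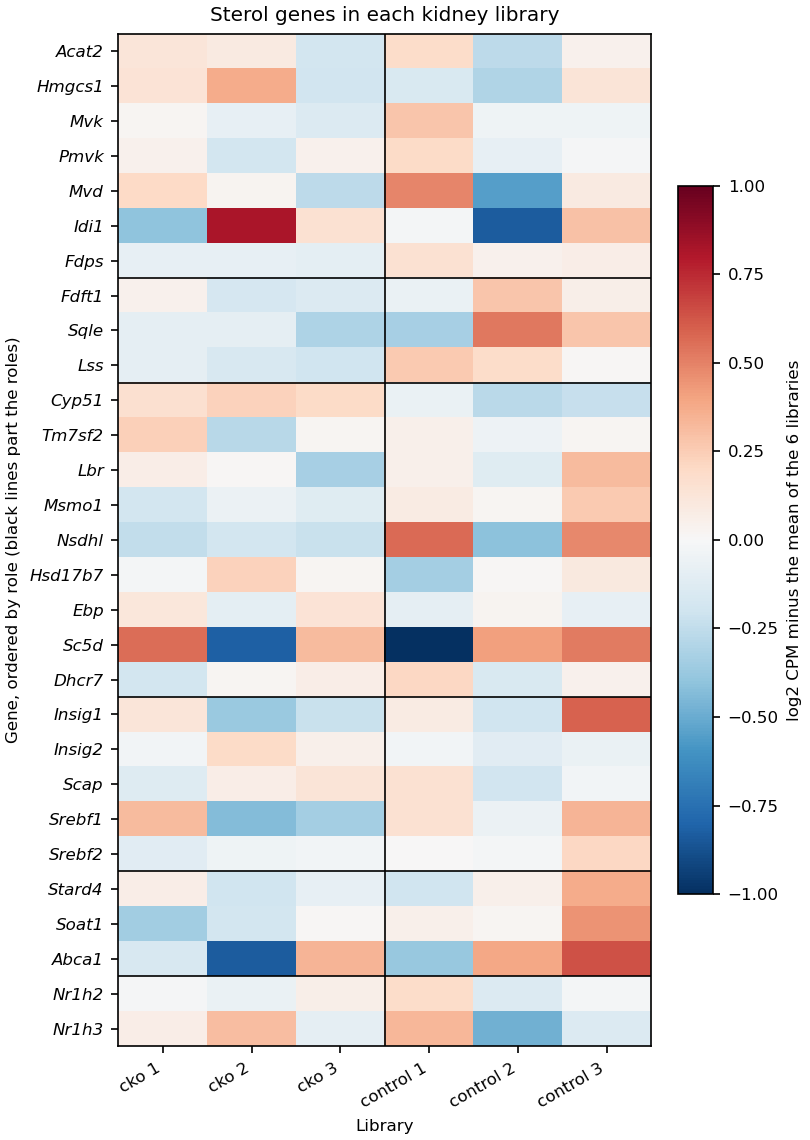
Log2 CPM of each gene in each library minus its mean over the 6 libraries (colour; red above, blue below), with genes in rows by role and the vertical line between cko and control. Cyp51 is red in all cko libraries and blue in all controls, while Idi1, Sc5d and Abca1 change colour within each group.

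The table lists transcripts, with 180 for these genes, 145 of them with counts and 65 abundant enough to test. By edgeR 0 of the 65 were called (0.0061% of 32803 transcripts tested were), 5 had an unadjusted p under 0.05 (3.19% of all), and 8, or 12.3%, had groups that did not overlap (9.97% of all). DESeq2 called 1, Cyp51-201, which carried 92.4% to 95.7% of the gene's counts and had a log2 fold change of 0.42 (SE 0.09, DESeq2 adjusted p = 0.0174, edgeR adjusted p = 0.855). The share of all transcripts that DESeq2 called is not given here, so that call has no background beside it. Over all genes DESeq2 called 15 where edgeR called 2. Lss-201, which carried 65.6% to 78.8% of the counts of Lss, lay lower by a log2 fold change of -0.43 (SE 0.13, adjusted p = 0.9999 by edgeR).

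The 2 most abundant transcripts of Soat1 and of Insig2 were read apart after their values had been seen, so the shares of each pair are a description with no test. Soat1-207 had 17.5, 16.8 and 19.1 CPM in cko libraries and 25.0, 28.7 and 29.7 CPM in controls (log2 fold change -0.64, SE 0.13, edgeR adjusted p = 0.816, DESeq2 adjusted p = 0.0996). Soat1-201 had 11.4, 14.2 and 18.2 CPM in cko libraries and 12.8, 7.77 and 16.9 CPM in controls, overlapping (log2 fold change 0.23, SE 0.32, between -0.02 and 0.51 when 1 library was left out). Of the counts of both, Soat1-207 took 60.7%, 54.1% and 51.1% in cko libraries and 66.2%, 78.7% and 63.7% in controls. The 5′ ends of the pair lie 7527 bases apart and the 3′ ends 5268 bases apart, so they differ at both ends.

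Insig2-201 had 44.4, 52.4 and 49.6 CPM in cko libraries and 38.4, 39.5 and 38.7 CPM in controls (log2 fold change 0.33, SE 0.11). Insig2-208 had 6.61, 4.27 and 4.05 CPM in cko libraries and 9.73, 7.82 and 8.04 CPM in controls (log2 fold change -0.78, SE 0.27). Neither passed the threshold (edgeR adjusted p = 0.9999 for both), although neither overlapped between groups. Insig2-201 took 87.0%, 92.4% and 92.4% of the counts of the pair in cko libraries and 79.8%, 83.4% and 82.8% in controls. Their 5′ ends lie 278 bases apart and their 3′ ends 1185 bases apart. Soat1 and Insig2 both lie on chromosome 1, where more genes had a small p than elsewhere; the part of that in these values was not tested.

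Srebf1 has 2 known forms that begin at separate starts, those whose promoters are printed above. Srebf1-201, from the upstream start, is the SREBP-1a form, a strong activator of all SREBP targets, and Srebf1-207, from the downstream start 10139 bases away, is the SREBP-1c form, which insulin and LXR induce. Srebf1-201 had 44.8, 24.5 and 29.2 CPM in cko libraries and 44.8, 30.7 and 39.1 CPM in controls. Srebf1-207 had 7.90 to 14.1 CPM in cko libraries and 8.58, 12.8 and 19.2 CPM in controls. The groups overlapped in both, and the downstream form took 24.0% to 25.6% of the counts of the pair in cko libraries and 16.1% to 33.0% in controls (exact two-sided permutation p = 0.9). With 3 libraries a group the smallest p of that permutation test is 0.1, so it could not have fallen under 0.05. The model of Srebf1-207 also ends earlier at its 3′ end, so the split between forms rests on the authors' assignment of shared reads.

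**Figure D4:**
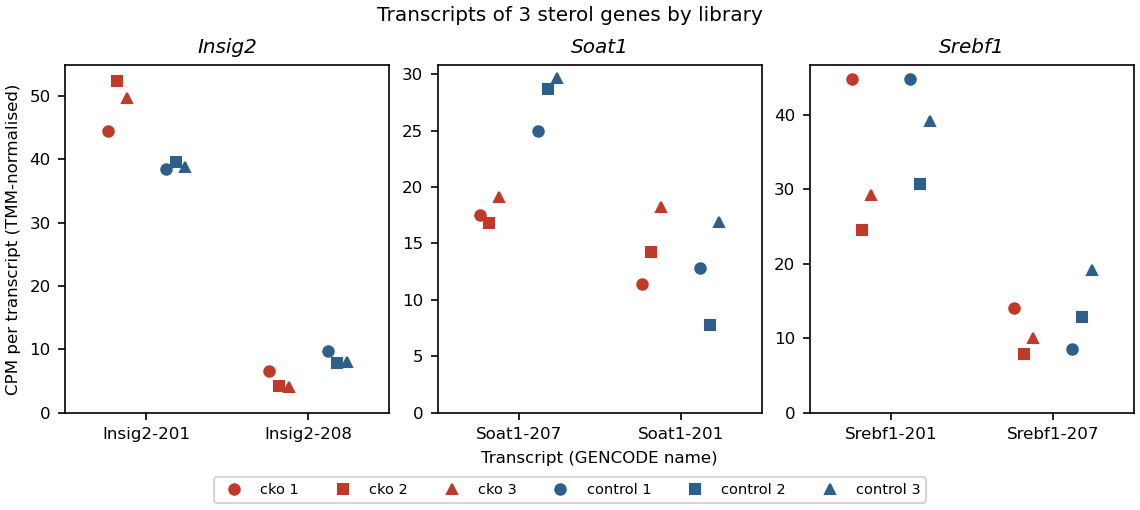
CPM of 2 transcripts each of Insig2, Soat1 and Srebf1 in every library (red cko, blue control), on axes that start at 0. Insig2-201, Insig2-208 and Soat1-207 separate the groups, and Soat1-201 and both Srebf1 transcripts do not.

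Genes around the route were followed in 6 further lists, and 0 genes of any list passed the edgeR threshold. Fatty acid synthesis driven by SREBP-1 had 16 tested genes, 4 above 0 and 12 below (median log2 fold change -0.10), with 1 unadjusted p under 0.05 by edgeR. Its most abundant genes were Me1, the cytosolic malic enzyme (log2 fold change 0.17, SE 0.23), Acss2, an acetyl-CoA synthetase (0.05, SE 0.10), and Aacs, an acetoacetyl-CoA synthetase (-0.10, SE 0.38). Aacs spanned 120 to 416 CPM within the controls alone. The gene below p 0.05 by edgeR was Mid1ip1, an activator of acetyl-CoA carboxylase, named after its values were seen (-0.39, SE 0.15).

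The list of machinery that moves, cleaves and degrades SREBPs and other sterol-sensing proteins also holds transcription factor genes, among them those of NF-Y. It had 24 tested genes, 11 above 0 and 13 below, with a median of -0.0090 and 0 unadjusted p under 0.05. Vcp, the segregase of protein degradation at the endoplasmic reticulum, and Erlin2, a scaffold of the same process, had log2 fold changes of 0.05 and -0.013. Other LXR targets and partners had 11 of 12 genes tested, 3 above 0 and 8 below, median -0.06. Smpdl3a, an LXR-induced phosphodiesterase, Apoe, the lipid-carrying apolipoprotein, and the corepressor Ncor1 had log2 fold changes of 0.03, -0.07 and -0.035.

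Intracellular sterol transport and ester turnover had 14 of 16 genes tested, 7 above 0 and 7 below, with a median of 0.01 and 1 unadjusted p under 0.05 by edgeR, that of Gramd1c, named after its values were seen (log2 fold change 0.445, SE 0.17, no overlap between groups). Scp2, the sterol carrier protein, Nceh1, a cholesterol ester hydrolase, and Gramd1b, a sterol transporter between membranes, had log2 fold changes of 0.07, 0.15 and -0.185. The isoprenoid branches that leave at farnesyl diphosphate had 14 tested genes, 8 above 0 and 6 below, with a median of 0.04, and Nus1, Zmpste24 and Icmt, of dolichol synthesis and prenyl protein processing, had 0.04, 0.15 and -0.02. The list of oxysterol formation also holds an oxysterol receptor and a sterol sulfotransferase. It had 8 tested genes, 3 above 0 and 5 below, with a median of -0.0090. Cyp7b1, an oxysterol hydroxylase and its most abundant gene, had 182, 342 and 273 CPM in cko libraries and 186, 167 and 215 CPM in controls (log2 fold change 0.49, SE 0.22, edgeR adjusted p = 0.9995), while Cyp27a1 and Hsd3b7 had -0.0030 and -0.03.

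Tissue makeup was read from marker lists measured in the same libraries. The 10 proximal tubule markers summed to 23390, 20700 and 20960 CPM in cko libraries and 24170, 19850 and 22020 CPM in controls, so the kidney label held in all 6. The adrenal cortex, a neighbouring gland rich in these enzymes, left little RNA: its 9 markers summed to 3.92 to 7.59 CPM, and Cyp11b1, Cyp11b2 and Nr5a1 were at 0 counts in every library, which allows up to 0.138 to 0.189 CPM. All 9 macrophage markers lay on the higher side in cko (median log2 fold change 0.28), with sums of 216, 176 and 161 CPM against 140, 158 and 157 CPM in controls. All 6 fibroblast and pericyte markers lay on the lower side (median -0.38; 3 had an unadjusted p under 0.05 by edgeR), with sums of 162, 114 and 118 CPM against 191, 165 and 156 CPM. The 5 tested adipocyte markers also lay on the lower side (median -0.52). All 6 listed, tested or not, summed to 47.7 to 76.5 CPM in cko libraries and 50.1 to 102 CPM in controls. Most of that sum was Fabp4, at 45.5 to 57.9 CPM in cko libraries and 47.8 to 68.8 CPM in controls. Markers of the thick ascending limb and distal tubule, of the collecting duct and of endothelium had medians of 0.0090, -0.14 and -0.09. Of the 7 collecting duct markers 1 lay above 0 and 6 below, and 1 had an unadjusted p under 0.05 by edgeR: Slc4a1, an anion exchanger, named after its values were seen (log2 fold change -0.57, groups without overlap). None of these markers was called by edgeR, and their part in the values of Soat1, Abca1 and the enzymes, which stromal and immune cells also express, was not tested.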

How the data were processed

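RNA sequencing of 3 kidney libraries labelled cko and 3 labelled control was analysed from 1 table of 128603 transcripts. The authors deposited estimated counts, without normalization, and FPKM values for each transcript, both on GRCm38. FPKM values in the deposited table use its own column totals and spliced transcript lengths. Per the submitters' processing notes, the tools included Cuffdiff 2.2.1, the aligner HISAT2 2.0.1, cutadapt 1.9.1 and, for base calls and read quality, bcl2fastq 2.17.1.14 with FastQC 0.10.1; no source used here names the program behind the estimated counts, the library kit or the strand setting. The labels' extraction text names both mouse kidney and cultured cells.

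Estimated counts were summed per gene symbol (87.9% of gene sums lay within 0.01 of a whole number) and rounded. The test was edgeR 4.0.16 (R 4.3.3), quasi-likelihood, TMM scaling (factors 0.964 to 1.06), the default filter with a minimum count of 10, group as the only term, two-sided, with Benjamini-Hochberg adjustment over 15017 genes, and the same for transcripts. The script was tested on simulated data. A log2 fold change is cko over control with its standard error (SE), and CPM is TMM-normalised. Alternatives were DESeq2 1.42.0, limma 3.58.1 on log2(FPKM + 1) and log2(FPKM + 0.1) and with quality weights, other scalings and filters, the replicate number as a block, sums per gene ID, and each library left out in turn. Intervals and limits cover counting error and the spread between libraries only; reads are not independent molecules.

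The members and lists were chosen with earlier results of these data known. All 29 genes are named. Values in every library are given for those with an unadjusted p under 0.05, the 6 largest changes and the 6 highest FPKM. Of each further list up to 3 genes by mean CPM are named (1 gene that this rule names is not reported here), and other names were chosen after their values were seen.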

Additional observations from a re-analysis of the deposited data

How the results depend on the processing

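No alternative called any of the 29 genes. Between 1 (limma) and 7 (quality weights) of them had an unadjusted p under 0.05. The share of all genes at that p, 3.23% in the main edgeR fit, is not given for the alternatives. These counts therefore have no background beside them. Over all genes, where edgeR called 2, the count was 1 with library totals only, 5 without a low-count filter, 15 with DESeq2, 1 with limma at a pseudocount of 1 or 0.1, 1 with quality weights, and 1 to 6 when each library was left out. Over the 29 genes the median log2 fold change lay between -0.17 (without cko 1) and -0.02 (without control 1). Of the transcripts of the 29 genes, DESeq2 called 1, Cyp51-201, and edgeR called 0 under every alternative run for transcripts. The cause of these differences was not tested. Of the 29 genes, 18 kept their sign under every alternative and 11 did not. Tm7sf2 was at -0.0010 with RLE and with upper-quartile scaling, -0.0050 with a minimum count of 30, -0.013 with the replicate block, -0.059 with quality weights, and between -0.13 and 0.12 over the left-out libraries. With quality weights Acat2 was at -0.038 and Sc5d at -0.16. With limma at pseudocounts of 1 and 0.1, Sc5d was at -0.035 and -0.039, Dhcr7 at 0.057 and 0.062, and Insig2 at -0.064 and -0.067; sums of FPKM weight a gene's transcripts by length, by construction. Leaving out 1 library gave ranges of -0.33 to 0.32 for Sc5d, -0.15 to 0.029 for Dhcr7, -0.10 to 0.11 for Acat2, -0.087 to 0.076 for Nr1h2, -0.30 to 0.20 for Mvd, -0.034 to 0.14 for Scap, -0.13 to 0.014 for Pmvk, -0.011 to 0.40 for Nr1h3 and -0.29 to 0.0050 for Stard4. The deviations of same-numbered libraries from their group means had correlations of 0.09, -0.09 and 0.12, and those of unlike-numbered libraries -0.17 to 0.076. Centring on means of 3 libraries ties these values together, so they cannot tell whether the numbers pair the samples. With the replicate number as a block edgeR called 2 genes and 0 of the 29, with a median over the 29 of -0.07. With 3 libraries a group and intervals as wide as that of Sc5d, changes well under 2-fold were not detectable for the genes that vary most. The medians of the other lists were put through the same alternatives, chosen after seeing the data.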
